A study of Mus musculus with 10 samples.

Results

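Ceramide synthesis and the serine palmitoyltransferase subunit gene Sptlc3 were followed through 10 genes: Sptlc1, Sptlc2 and Sptlc3, Cers2, Cers4, Cers5 and Cers6, Degs1, Sphk1 and Sgpl1. They were taken by symbol from a count table of 18103 mouse genes, and the group was chosen by the Sptlc3 counts, which rose from 0 under each treatment. Those 3 comparisons of Sptlc3 are therefore given as a description, without a test. A row was present for 9 of the 10 genes, and all 9 passed the filter on low counts; Cers4 was not analysed here. No other measured gene of the group had 0 counts in any library, and the next lowest was Sphk1, with 10 counts in 1 library.

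RNA was sequenced from 10 libraries of mouse breast cancer cell lines, 2 libraries for each of 5 groups. All were taken to be at 7 days, although the titles of the 2 MTΔECad controls name no day. Py2T-LT cells, long-term cultured cells of the Py2T line, were sampled as controls, with a MEK inhibitor (MEKi) and with bone morphogenetic protein 2 and the MEK inhibitor (BMP2+MEKi). MTΔECad cells, a mesenchymal line without E-cadherin, were sampled as controls and with rosiglitazone, a PPARγ agonist. In the protocol BMP2 is usually given at 200 ng/ml, PD98059 (the MEK inhibitor) at 40 µM and rosiglitazone at 2 µM, and controls received DMSO. The sample labels give no dose, and those of the Py2T-LT groups name no rosiglitazone although the general protocol for cancer cells includes it. Each group is 1 established line in culture, so a difference between MTΔECad and Py2T-LT cells cannot be told apart from any other difference between those lines.

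Library totals ran from 14659987 to 17249199 counts, so that 1 count was worth at most 0.0696 CPM (counts scaled to a common library size by TMM) and the floor of 3 counts per library at most 0.209 CPM. Cdh1, which encodes E-cadherin, had 584 and 507 counts in the Py2T-LT controls, 37 and 36 in the MTΔECad controls and 46 and 67 after rosiglitazone. The summed level of 5 mesenchymal markers was between 7957 and 16138 CPM in each library. Markers of other cells were low: 2 of 6 haematopoietic markers with a row summed to 2.85 to 8.20 CPM, 3 of 4 endothelial markers to 0.0626 to 0.646 CPM, 1 of 4 muscle markers to at most 0.557 CPM and 3 of 4 keratinocyte markers to 0.375 to 2.26 CPM. Values below are means ± SD with n = 2, log2 fold changes carry their standard error, and a gene is called when its p from the quasi-likelihood test of edgeR, adjusted by Benjamini-Hochberg over 13149 genes, was under 0.05.

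Serine palmitoyltransferase makes the first committed step of sphingolipid synthesis, the condensation of serine with a fatty acyl-CoA. The enzyme pairs SPTLC1 with a catalytic partner, either SPTLC2 or SPTLC3, and SPTLC3 is known for accepting shorter acyl chains and giving shorter sphingoid bases. Ceramide synthases then add a second acyl chain, DEGS1 introduces the double bond that turns dihydroceramide into ceramide, and the sphingosine released from ceramide is phosphorylated by SPHK1 and finally cleaved by SGPL1. In adipose tissue ceramides are known as lipids that accumulate with fat overload and dampen insulin signalling.

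The start regions of the alternative catalytic subunit genes are shown first, since Sptlc3 had 0 counts in control cells while Sptlc2 was counted in every library. Both are 300 bases from RefSeq on GRCm38.p6, 250 before and 50 after the annotated gene start, written 5′ to 3′ on the gene's own strand. They lie at chr2:139493663-139493962 on the plus strand for Sptlc3 (NCBI gene 228677) and at chr12:87388306-87388605 on the minus strand for Sptlc2 (NCBI gene 20773). Capitals mark CG dinucleotides and, in Sptlc3, a match to a C/EBP-type motif.
Sptlc3: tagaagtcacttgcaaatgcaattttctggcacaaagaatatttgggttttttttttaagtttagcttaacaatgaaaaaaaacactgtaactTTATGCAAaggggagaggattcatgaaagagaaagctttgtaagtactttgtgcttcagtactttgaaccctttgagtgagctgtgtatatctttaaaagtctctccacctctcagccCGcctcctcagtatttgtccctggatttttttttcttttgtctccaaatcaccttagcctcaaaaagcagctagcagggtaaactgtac
Sptlc2: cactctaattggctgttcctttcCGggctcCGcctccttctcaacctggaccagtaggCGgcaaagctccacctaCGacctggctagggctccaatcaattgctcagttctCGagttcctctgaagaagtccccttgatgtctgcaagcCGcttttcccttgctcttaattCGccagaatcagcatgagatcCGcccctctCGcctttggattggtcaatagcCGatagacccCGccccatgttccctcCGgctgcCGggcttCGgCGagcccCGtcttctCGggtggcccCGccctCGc
The Sptlc3 window held 1 CG dinucleotide and 37.3% G and C, at the 6.19th percentile of the 32851 mouse promoters of that length. The Sptlc2 window held 19 CG dinucleotides and 59.3% G and C, against medians of 7 and 52.7% over all promoters. A C/EBP-type match, TTATGCAA, began 157 bases upstream of the Sptlc3 start. The letters searched were TTGCNNAA on both strands, found in 10.8% of all promoters and absent from the Sptlc2 window. They were in 2 of the 15 annotated start regions of the 10 genes, that of Sptlc3 and a Cers2 window. The DR1 element to which PPARγ and RXR are known to bind, searched on both strands, was in 0.0396% of all promoters and in 0 of the 15 annotated start regions of the 10 genes. The single nuclear receptor motif AGGTCA, which lies within that element, was in 16.3% of all promoters and in 3 of the 15. These were a Cers2 window and overlapping Sphk1 windows, which start at 116532194 and 116532201, and not the Sptlc3 window. These matches describe letters in a window and not bound sites.

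Sptlc3 RNA was not detected in untreated cells of either line and was counted in each treated library. The Py2T-LT controls had 0 and 0 counts and the MTΔECad controls 0 and 0. With the MEK inhibitor there were 21 and 38 counts (1.36 and 2.08 CPM), and with BMP2+MEKi 148 and 184 counts (9.91 and 10.7 CPM). With rosiglitazone MTΔECad cells had 20 and 23 counts (1.31 and 1.58 CPM). The BMP2+MEKi libraries were thus the highest and did not overlap with any other group, whereas the MEKi and rosiglitazone libraries lay in the same range.

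Mean Sptlc3 levels were 1.72 ± 0.512 CPM with the MEK inhibitor, 10.3 ± 0.557 CPM with BMP2+MEKi and 1.45 ± 0.191 CPM with rosiglitazone. Set against the floor of 3 counts per library in the matching controls, these means were 9.24-fold, 55.4-fold and 7.30-fold higher. The first 2 of these ratios share the Py2T-LT controls. All 3 allow for counting error in the controls only and take the treated means as exact. In bulk RNA, a few cells with much Sptlc3 and many cells with a little cannot be told apart.

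The comparison of BMP2+MEKi with the MEK inhibitor alone was not the one that picked the gene, and it was tested. The Sptlc3 counts of both groups were part of that choice, which limits what its p-value can show. Sptlc3 rose there by 2.56 ± 0.24 on the log2 scale (adjusted p = 5.8e-08, edgeR's quasi-likelihood test), and both BMP2+MEKi libraries were above both MEKi libraries. Leaving out single libraries gave 2.30 to 2.92.

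With TMM scaling, neither partner gene of Sptlc3 was called in a treatment comparison. Sptlc1, the subunit common to both forms of the enzyme, had 63.4 and 62.8 CPM in Py2T-LT controls, 64.7 and 61.4 with the MEK inhibitor, and 67.7 and 63.9 with BMP2+MEKi. In MTΔECad cells it had 66.2 and 67.4 CPM in controls and 62.2 and 70.9 with rosiglitazone. Its group means were within 63.0 to 66.8 CPM, and no comparison was called by edgeR. The log2 fold changes of Sptlc1 ran from -0.01 ± 0.09 for rosiglitazone to 0.08 ± 0.09 between the control groups of the lines.

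Sptlc2, the catalytic subunit found in most tissues, had 97.7 and 94.8 CPM in Py2T-LT controls, 98.9 and 104 with the MEK inhibitor, and 91.0 and 89.9 with BMP2+MEKi. In MTΔECad cells it had 80.2 and 83.8 CPM in controls and 94.5 and 92.7 with rosiglitazone. The MTΔECad controls were the lowest group and did not overlap with the Py2T-LT controls, and the difference was called (log2 fold change -0.23 ± 0.08, adjusted p = 0.011, edgeR). That call was lost without Py2T-LT control replicate 1 (adjusted p = 0.061) and without MTΔECad control replicate 1 (adjusted p = 0.096). None of the treatment comparisons of Sptlc2 was called by edgeR, except that with library totals as the scaling it was called lower with BMP2+MEKi than with the MEK inhibitor (-0.22, adjusted p = 0.032).

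Per length of exon, Sptlc3 reached 3.62 ± 0.196 CPM per kb with BMP2+MEKi, beside 11.1 ± 0.0977 CPM per kb for Sptlc2 in the same cells. Of the summed Sptlc2 and Sptlc3 level per kb, Sptlc3 made up 23.7% and 25.3% in the BMP2+MEKi libraries. It made up 3.76% and 5.39% in the MEKi libraries and 3.81% and 4.64% in the rosiglitazone libraries. Sptlc2 was thus the more abundant transcript in every group, by 3.08-fold ± 0.194 with BMP2+MEKi and by 21.6-fold ± 5.68 and 22.9-fold ± 3.32 with the MEK inhibitor and rosiglitazone.

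**Figure D1:**
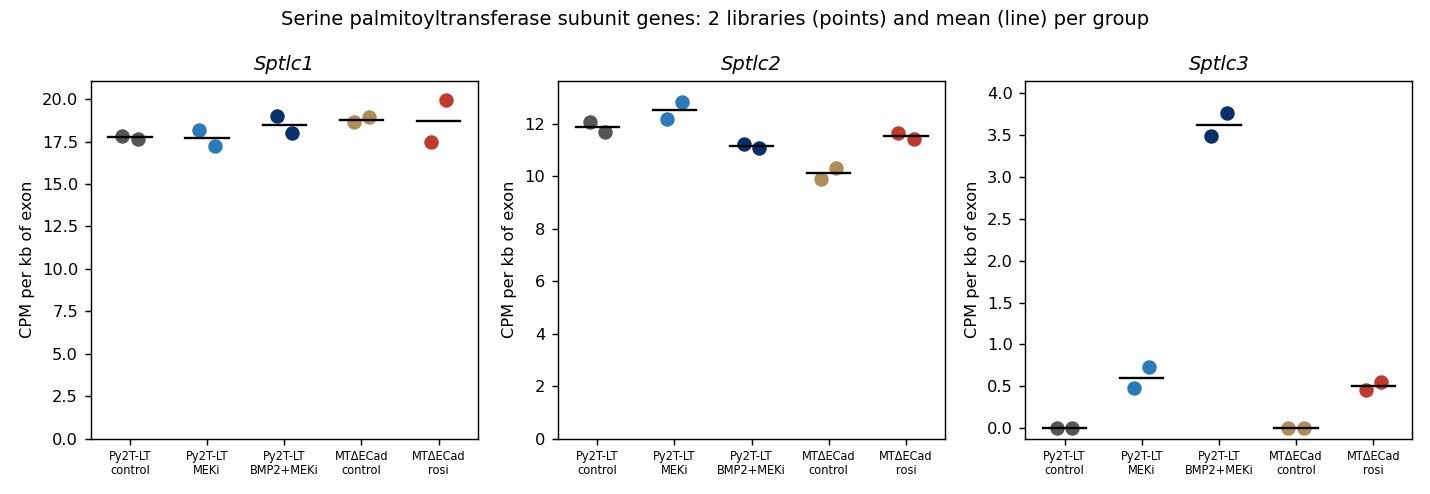
Levels of Sptlc1, Sptlc2 and Sptlc3 in CPM per kb of exon (vertical axes, each from 0 and with its own range) in the 5 groups; points are the 2 libraries of a group and lines their mean. Sptlc3 was at 0 in both control groups and at 3.62 CPM per kb with BMP2+MEKi, while the group means of Sptlc1 and Sptlc2 stayed between 17.7 and 18.8 and between 10.1 and 12.5 CPM per kb.

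Adipocyte genes were higher in the same treated groups. All 6 adipocyte markers (Pparg, Cebpa, Adipoq, Fabp4, Plin1 and Cidec) were called higher with the MEK inhibitor and with BMP2+MEKi against the same controls, and 5 of 6 with rosiglitazone, where 8.98%, 19.1% and 7.95% of all genes were called higher. Their summed level was 40.7 to 47.7 CPM in Py2T-LT controls, 255 to 300 with the MEK inhibitor and 429 to 433 with BMP2+MEKi. In MTΔECad cells it was 139 to 141 CPM in controls and 1735 to 1931 with rosiglitazone, so the group with the highest adipocyte sum was not the group with the highest Sptlc3. Pparg, the receptor that rosiglitazone binds, rose by 1.87 and 2.82 on the log2 scale with the MEK inhibitor and BMP2+MEKi, and changed by -0.12 ± 0.09 with rosiglitazone without being called. Epithelial markers (5 genes) summed to 216 to 233 CPM with BMP2+MEKi against 627 to 677 in its controls. Of these markers 3 of 5 were called lower, beside 19.4% of all genes. With rosiglitazone they summed to 360 to 393 CPM against 273 to 285 in its controls, and 3 of 5 were called higher. The part of these marker genes in the Sptlc3 result was not tested.

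Ceramide synthases set the length of the acyl chain of a ceramide. Cers2, which makes very long-chain ceramides, was the most abundant of the measured synthases in CPM per kb. It had 237 and 228 CPM in Py2T-LT controls, 227 and 232 with the MEK inhibitor and 226 and 213 with BMP2+MEKi, and 220 to 224 CPM in the 4 MTΔECad libraries. The group means ran from 219 to 232 CPM, and no comparison of Cers2 was called by edgeR with TMM scaling. Cers2 shares 75 bases of exon with Setdb1 and 144 with an antisense RNA on the other strand, and the use of strand in the counting is not given in the sources used here.

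Cers5, a synthase of long-chain ceramides, had 129 and 127 CPM in Py2T-LT controls and 109 to 120 CPM in the other 8 libraries. Its controls were above the MEKi libraries (115 and 109 CPM), but the difference was not called (log2 fold change -0.19 ± 0.07, adjusted p = 0.094, edgeR). Cers6, which also makes long-chain ceramides, was the synthase of the group that was called between the lines; Cers1 and Cers3, given further on, were called as well. Cers6 had 17.6 and 22.5 CPM in Py2T-LT controls and 82.3 and 78.3 CPM in MTΔECad controls, without overlap (log2 fold change 2.00 ± 0.11, adjusted p = 2.2e-12, edgeR). Of the summed level of Cers2, Cers5 and Cers6 per kb, Cers6 made up 2.23% ± 0.433 in Py2T-LT controls and 8.83% ± 0.342 in MTΔECad controls.

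The calls of Cers6 under treatment were not stable. With rosiglitazone it had 61.2 and 67.4 CPM, below both MTΔECad controls (log2 fold change -0.32 ± 0.10, adjusted p = 0.044, edgeR). That call was lost with library totals as the scaling (adjusted p = 0.052), with DESeq2 (0.10) and without any 1 of the 4 libraries (0.051 to 0.28). With BMP2+MEKi Cers6 had 23.5 and 26.0 CPM, above both Py2T-LT controls (log2 fold change 0.31 ± 0.12, adjusted p = 0.048, edgeR). This call was lost with library totals (adjusted p = 0.056), when only the compared groups were fitted (0.090) and with DESeq2 (0.088). Leaving out Py2T-LT control replicate 1 or either BMP2+MEKi library ended it as well (adjusted p = 0.064 to 0.48).

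Degs1, the dihydroceramide desaturase, was higher with BMP2+MEKi. It had 234 and 215 CPM in Py2T-LT controls, 260 and 251 with the MEK inhibitor and 306 and 303 with BMP2+MEKi. The 3 groups did not overlap. Against the controls Degs1 rose by 0.44 ± 0.08 on the log2 scale with BMP2+MEKi (adjusted p = 6.9e-05, edgeR), and this held under each alternative that was run. Against the MEK inhibitor alone it rose by 0.26 ± 0.08 (adjusted p = 0.010), a call lost without MEKi replicate 2 (adjusted p = 0.078) or BMP2+MEKi replicate 1 (0.060). The step from controls to the MEK inhibitor was 0.19 ± 0.08 and was not called (adjusted p = 0.11). In MTΔECad cells Degs1 had 242 and 250 CPM in controls and 231 and 258 with rosiglitazone, overlapping values.

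Sphk1, which phosphorylates sphingosine, had few counts and large differences. There were 55 and 43 counts in Py2T-LT controls, 89 and 77 with the MEK inhibitor and 11 and 10 with BMP2+MEKi, or 3.04 ± 0.496, 4.98 ± 1.08 and 0.659 ± 0.110 CPM. The BMP2+MEKi libraries were the lowest of all 10. Sphk1 fell by 2.20 ± 0.34 on the log2 scale against the controls (adjusted p = 1.7e-05, edgeR) and by 2.90 ± 0.31 against the MEK inhibitor alone (adjusted p = 1.4e-07), 2 comparisons that share the BMP2+MEKi libraries. Thus, where Sptlc3 was highest, Sphk1 was lowest.

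With the MEK inhibitor alone Sphk1 was called higher than in controls (log2 fold change 0.70 ± 0.23, adjusted p = 0.040, edgeR). The call was lost when only the compared groups were fitted (adjusted p = 0.062), with DESeq2 (0.16), and without Py2T-LT control replicate 2 (0.28) or MEKi replicate 1 (0.33). In MTΔECad cells Sphk1 had 103 and 88 counts in controls and 111 and 107 with rosiglitazone, a difference that was not called. The MTΔECad controls were above the Py2T-LT controls by 1.05 ± 0.22 on the log2 scale (adjusted p = 4e-04). Sphk1 shares 192 bases of exon with an antisense RNA, so reads of these genes may not be separated.

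Sgpl1, the lyase that removes sphingosine-1-phosphate from the pathway, was called between the lines and in no treatment comparison. It had 373 and 384 CPM in Py2T-LT controls and 203 and 212 CPM in MTΔECad controls, without overlap (log2 fold change -0.87 ± 0.07, adjusted p = 7.4e-10, edgeR). The 4 treated Py2T-LT libraries were at 354 to 374 CPM and the rosiglitazone libraries at 214 and 212 CPM. The rosiglitazone libraries lay at or just above their controls.

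**Figure D2:**
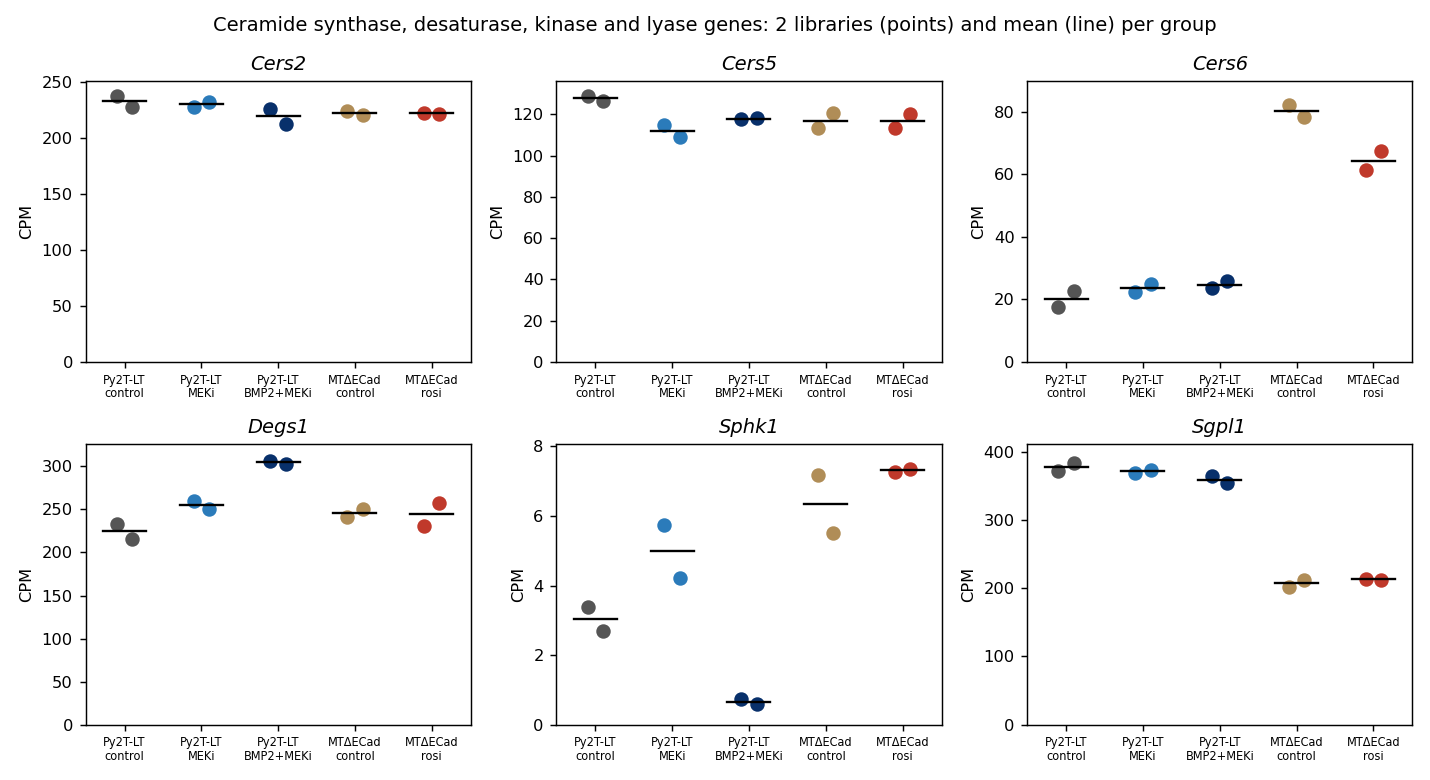
CPM of Cers2, Cers5, Cers6, Degs1, Sphk1 and Sgpl1 (vertical axes from 0, each with its own range) in the 5 groups; points are libraries and lines group means. Cers6 and Sgpl1 separate the lines, and Sphk1 is lowest with BMP2+MEKi at 0.659 CPM.

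Counted over the group, the calls under treatment were near the shares over all genes. With the MEK inhibitor 1 of 8 was called, Sphk1 (higher), where 8.98% of all genes were called higher and 7.52% lower; Sptlc3 is left out of this count. With BMP2+MEKi against controls 3 of 8 were called, Degs1 and Cers6 higher and Sphk1 lower, against backgrounds of 19.1% and 19.4%. BMP2+MEKi against the MEK inhibitor gave 3 of 9, Sptlc3 and Degs1 higher and Sphk1 lower, with 17.9% and 19.4% of all genes called. Sptlc3 is counted there although its counts in both groups were used to pick the genes. Rosiglitazone gave 1 of 8, Cers6 (lower), with backgrounds of 7.95% higher and 5.26% lower. Calls that held under each alternative run were Degs1 and Sphk1 with BMP2+MEKi against controls and Sptlc3 and Sphk1 against the MEK inhibitor. The calls of Sphk1 with the MEK inhibitor, of Cers6 with rosiglitazone and BMP2+MEKi, and of Degs1 against the MEK inhibitor were each ended by at least 2 alternatives.

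Between the control groups of the lines, 4 of 8 were called, Cers6 and Sphk1 higher and Sgpl1 and Sptlc2 lower in MTΔECad cells, with Sptlc3 at 0 in both groups and left out. There 29.3% of all genes were higher and 31.7% lower. Scaled by library totals alone, that split over all genes was 3054 higher and 5227 lower, in place of 3857 and 4163, with the median of all genes shifted by -0.127 on the log2 scale. Under that scaling 2 of the group were called higher and 4 lower, in place of 2 and 2, since Cers2 and Cers5 were then called lower (adjusted p = 0.025 and 0.0072, edgeR). The median log2 fold change of the group was 0.04 with the MEK inhibitor, -0.08 with BMP2+MEKi against controls, 0.06 with BMP2+MEKi against the MEK inhibitor, 0.00 with rosiglitazone and 0.01 between the lines. Over all genes tested those medians were 0.01, 0.00, 0.01, -0.02 and -0.03.

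**Figure D3:**
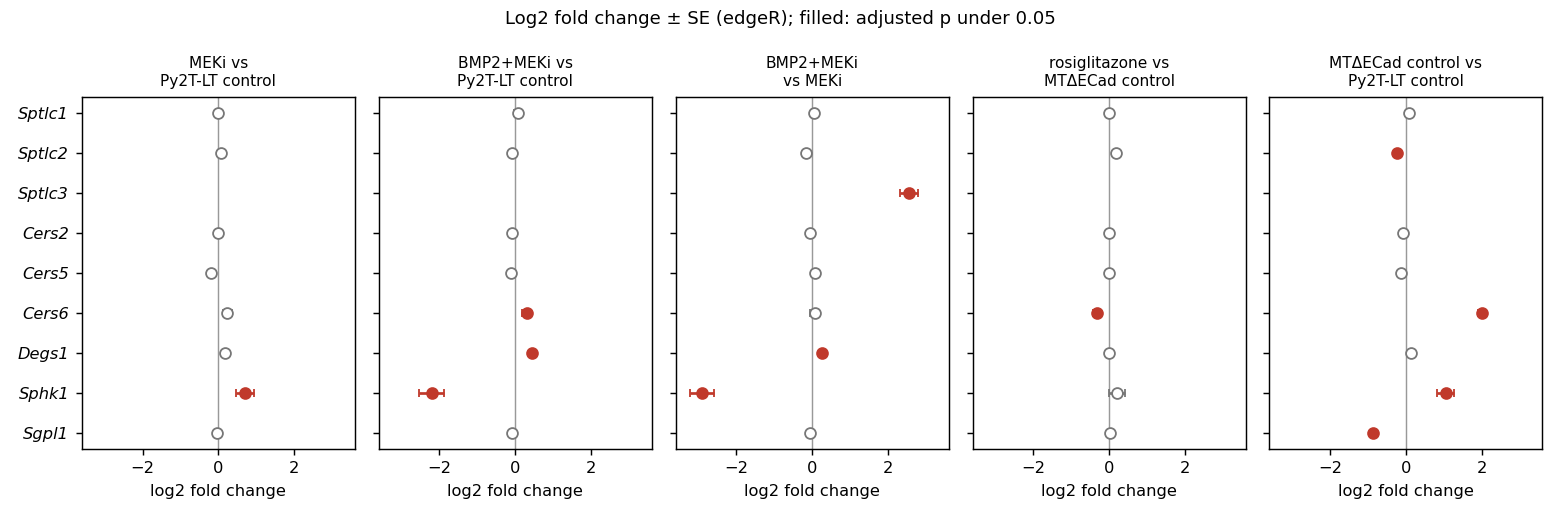
Log2 fold change (horizontal axis) with its standard error for the measured genes of the group in 5 comparisons; filled points have an adjusted p under 0.05. Sptlc3 is drawn only for BMP2+MEKi against the MEK inhibitor, since the other comparisons start from 0 counts, and its 2.56 is the largest rise while the 2.90 fall of Sphk1 is the largest drop of that panel.

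Ormdl3, a regulator of the first step, was called higher under every treatment. ORMDL proteins bind serine palmitoyltransferase and restrain it when ceramide is plentiful. Ormdl3 had 79.9 and 76.1 CPM in Py2T-LT controls, 114 and 98.3 with the MEK inhibitor, and 134 and 142 with BMP2+MEKi. In MTΔECad cells it had 131 and 135 CPM in controls and 278 and 247 with rosiglitazone. Treated and control libraries did not overlap in either line. Ormdl3 rose by 0.44 ± 0.09 on the log2 scale with the MEK inhibitor, by 0.83 ± 0.09 with BMP2+MEKi (the same controls), and by 0.98 ± 0.08 with rosiglitazone (adjusted p = 0.00089, 1e-07 and 2e-08, edgeR), and these calls held under each alternative run. BMP2+MEKi exceeded the MEK inhibitor alone by 0.38 ± 0.08.

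The other subunit and regulator genes had fewer calls. Sptssa, a small subunit that activates the enzyme, had group means of 55.1 to 69.8 CPM and no call by edgeR. Sptssb, the second small subunit, was too low to test, with 17 counts at most in a library and 0 in the 4 MTΔECad libraries. Ormdl2 was called lower in MTΔECad controls than in Py2T-LT controls (17.0 ± 0.267 against 34.9 ± 0.267 CPM), and Ormdl1 was called lower with BMP2+MEKi (-0.36 ± 0.14 against controls). This call of Ormdl1 was lost when only the compared groups were fitted, with DESeq2 and without BMP2+MEKi replicate 2. Kdsr, the reductase that follows serine palmitoyltransferase, was at 115 to 117 CPM in the Py2T-LT groups and at 83.4 CPM in MTΔECad controls (called lower).

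Among the remaining ceramide synthases, Cers3, which makes ultra-long ceramides of skin, had 40 and 47 counts in Py2T-LT controls, 26 and 35 with the MEK inhibitor and 12 and 13 with BMP2+MEKi. It fell by 1.78 ± 0.33 with BMP2+MEKi against controls (adjusted p = 0.00017, edgeR). Cers1, a synthase best known from brain and muscle, had 37 and 29 counts in Py2T-LT controls and 3 and 1 in MTΔECad controls. Degs2 was not analysed here. Over the 7 tested genes of this list of other subunits, regulators and synthesis enzymes (9 listed), 1 was called with the MEK inhibitor, 3 with BMP2+MEKi (1 higher), 1 with rosiglitazone and 5 between the lines (1 higher). The single calls with the MEK inhibitor and rosiglitazone were higher. Beside them, the shares of all genes called higher and lower were 8.98% and 7.52% with the MEK inhibitor, 19.1% and 19.4% with BMP2+MEKi, 7.95% and 5.26% with rosiglitazone, and 29.3% and 31.7% between the lines. The list medians were -0.02, -0.04, -0.05 (6 genes above the floor) and -0.48 on the log2 scale, beside 0.01, 0.00, -0.02 and -0.03 over all genes.

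Serine, the amino acid that serine palmitoyltransferase uses, is made from a glycolytic intermediate by PHGDH, PSAT1 and PSPH and exchanged with glycine by SHMT1 and SHMT2. With BMP2+MEKi 4 of these 5 genes were called lower than in controls, and all 5 were called lower than with the MEK inhibitor alone, where 19.4% of all genes were called lower in each comparison. Psat1 had 251 and 235 CPM in Py2T-LT controls, 264 and 274 with the MEK inhibitor and 133 and 143 with BMP2+MEKi. It fell by 0.81 ± 0.08 against controls and by 0.96 ± 0.08 against the MEK inhibitor on the log2 scale (adjusted p = 1.7e-08 and 1.4e-09, edgeR). Phgdh had 56.1 and 53.3 CPM in controls and 30.9 and 37.2 with BMP2+MEKi, a fall of 0.68 ± 0.10. In both genes the BMP2+MEKi libraries lay below all other Py2T-LT libraries.

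Of the 4 falls against controls 3 held under each alternative (Phgdh, Psat1 and Shmt1), and of the 5 against the MEK inhibitor 4 did. Without BMP2+MEKi replicate 1, Shmt2 was no longer called against controls. Psph was no longer called against the MEK inhibitor without BMP2+MEKi replicate 1 or without MEKi replicate 1. The MEK inhibitor alone gave 0 calls of 5 by edgeR, with 1 higher and 1 lower at an unadjusted p under 0.05 and 0 by DESeq2. Of all genes 8.98% were called higher and 7.52% lower with it. The medians of the 5 genes were -0.65 and -0.55 on the log2 scale in the BMP2+MEKi comparisons, which share libraries, beside 0.00 and 0.01 over all genes. With rosiglitazone Psat1 was called higher (0.33 ± 0.07), and this ended without MTΔECad control replicate 1 (adjusted p = 0.078).

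Ceramide breakdown genes showed a second gene that was low in controls and highest with BMP2+MEKi. Acer2, an alkaline ceramidase that releases sphingosine, had 4 and 2 counts in Py2T-LT controls, 7 and 10 with the MEK inhibitor and 32 and 46 with BMP2+MEKi. In MTΔECad cells it had 2 and 2 counts in controls and 7 and 7 with rosiglitazone. The summed counts of BMP2+MEKi against controls, 78 and 6, gave a ratio of 13.0 after scaling (95% exact counting interval 5.73 to 36.6). Acer2 was called higher with BMP2+MEKi against controls (adjusted p = 1.8e-06, edgeR) and against the MEK inhibitor alone (2.25 ± 0.37, adjusted p = 5.7e-05).

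Acer3, another alkaline ceramidase, fell by 0.60 ± 0.10 with BMP2+MEKi, from 76.7 and 85.8 CPM to 55.9 and 51.4 CPM. Galc, the lysosomal galactosylceramidase, had 77.9 and 78.7 CPM in MTΔECad controls and 48.6 and 51.8 with rosiglitazone, a fall of 0.64 ± 0.10. Over the 11 tested breakdown genes (13 listed), 5 were called with BMP2+MEKi against controls (2 higher), 7 against the MEK inhibitor (5 higher), 3 with rosiglitazone (1 higher) and 6 between the lines (4 higher). The shares of all genes called higher and lower there were 19.1% and 19.4%, 17.9% and 19.4%, 7.95% and 5.26%, and 29.3% and 31.7%. Calls that held under each alternative numbered 2, 2, 1 and 3 in those comparisons. The MEK inhibitor alone gave 0 calls by edgeR, with 1 higher at an unadjusted p under 0.05 and 0 by DESeq2. Of all genes 8.98% were called higher and 7.52% lower there. The list medians were 0.08, 0.13, 0.01 and 0.16 on the log2 scale, beside 0.00, 0.01, -0.02 and -0.03 over all genes.

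Sphingosine-1-phosphate is turned over, exported and sensed by another list of genes. Sphk2, the paralog of Sphk1, had group means of 17.7 to 22.0 CPM and no call by edgeR. Spns2, the exporter of sphingosine-1-phosphate, had 73.0 and 70.8 CPM in Py2T-LT controls and 2.92 and 3.69 in MTΔECad controls, a fall of 4.43 ± 0.13 on the log2 scale. It rose to 9.05 and 8.94 CPM with rosiglitazone (1.43 ± 0.16, adjusted p = 8.8e-07, edgeR) and fell by 0.50 ± 0.09 with the MEK inhibitor in Py2T-LT cells. S1pr1, a receptor for the lipid, had 11.7 and 7.56 CPM in Py2T-LT controls against 192 and 189 in MTΔECad controls. With rosiglitazone S1pr1 was lower, at 125 and 116 CPM (-0.66 ± 0.12). S1pr3, a related receptor, had 2 counts in all in the Py2T-LT controls and 436 in the MTΔECad controls, a ratio of 232 after scaling (95% exact counting interval 63.7 to 1919).

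The lipid phosphate phosphatase genes, whose products remove the phosphate of such lipids, did not move alike. Plpp3 rose by 0.93 ± 0.08 with BMP2+MEKi and by 0.71 ± 0.08 with rosiglitazone, from 55.6 and 55.8 to 108 and 104 CPM in the former. Plpp2 fell by 0.86 ± 0.09 with BMP2+MEKi, and Plpp1 rose by 0.66 ± 0.11 with the MEK inhibitor alone. Over the 10 tested genes of this list (13 listed), 4 were called with the MEK inhibitor (3 higher), 6 with BMP2+MEKi against controls (3 higher), 4 with rosiglitazone (2 higher) and 8 between the lines (5 higher). Of all genes, the shares called higher and lower were 8.98% and 7.52% with the MEK inhibitor, 19.1% and 19.4% with BMP2+MEKi, 7.95% and 5.26% with rosiglitazone, and 29.3% and 31.7% between the lines. Calls that held under each alternative numbered 2, 2, 3 and 6. List medians above the floor were -0.07, 0.02, -0.06 and 0.63 on the log2 scale, beside 0.01, 0.00, -0.02 and -0.03 over all genes.

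Acyl chains for ceramide are lengthened by the ELOVL and HACD enzymes. Elovl6, which extends palmitate, had 93.9 and 92.1 CPM in Py2T-LT controls, 140 and 138 with the MEK inhibitor and 146 and 125 with BMP2+MEKi, and was called higher in both (0.58 ± 0.08 and 0.54 ± 0.08, with shared controls). In MTΔECad cells Elovl6 fell with rosiglitazone from 95.5 and 97.3 CPM to 67.3 and 73.7 CPM (-0.45 ± 0.08). The difference between these responses of the lines was not tested. Hacd3 rose by 0.53 ± 0.07 with BMP2+MEKi and Hacd2 by 0.75 ± 0.14 with rosiglitazone. Of 10 tested genes (13 listed), 2 were called with the MEK inhibitor and 3 with BMP2+MEKi, all higher, 3 with rosiglitazone (2 higher) and 6 between the lines (4 higher), and 1, 2, 3 and 5 of these held under each alternative. Over all genes 8.98%, 19.1%, 7.95% and 29.3% were called higher and 7.52%, 19.4%, 5.26% and 31.7% lower. The list medians were 0.11, 0.10, -0.11 and 0.10 on the log2 scale, beside 0.01, 0.00, -0.02 and -0.03 over all genes.

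Ceramide is handed on to sphingomyelin or glycolipids by a further list of genes. Sgms1, a sphingomyelin synthase, had 35.8 and 34.0 CPM in MTΔECad controls and 48.3 and 50.5 with rosiglitazone, a rise of 0.50 ± 0.10 (adjusted p = 0.00076, edgeR) that held under each alternative. The other treatment calls among the 11 tested genes (12 listed), 2 with the MEK inhibitor, 3 with BMP2+MEKi against controls, 1 with BMP2+MEKi against the MEK inhibitor and 2 with rosiglitazone, were all lower, and each was lost in at least 1 alternative. Over all genes 7.52%, 19.4%, 19.4% and 5.26% were called lower in those comparisons. Between the lines 10 of 11 were called (7 higher in MTΔECad cells), where 29.3% of all genes were higher and 31.7% lower, with a list median of 0.41 beside -0.03 over all genes. Samd8, which makes the ethanolamine analogue of sphingomyelin, stood at 46.0 ± 1.25 against 133 ± 7.56 CPM, and B4galt6, a lactosylceramide synthase, at 8.95 ± 3.86 against 46.0 ± 4.99 CPM.

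**Figure D4:**
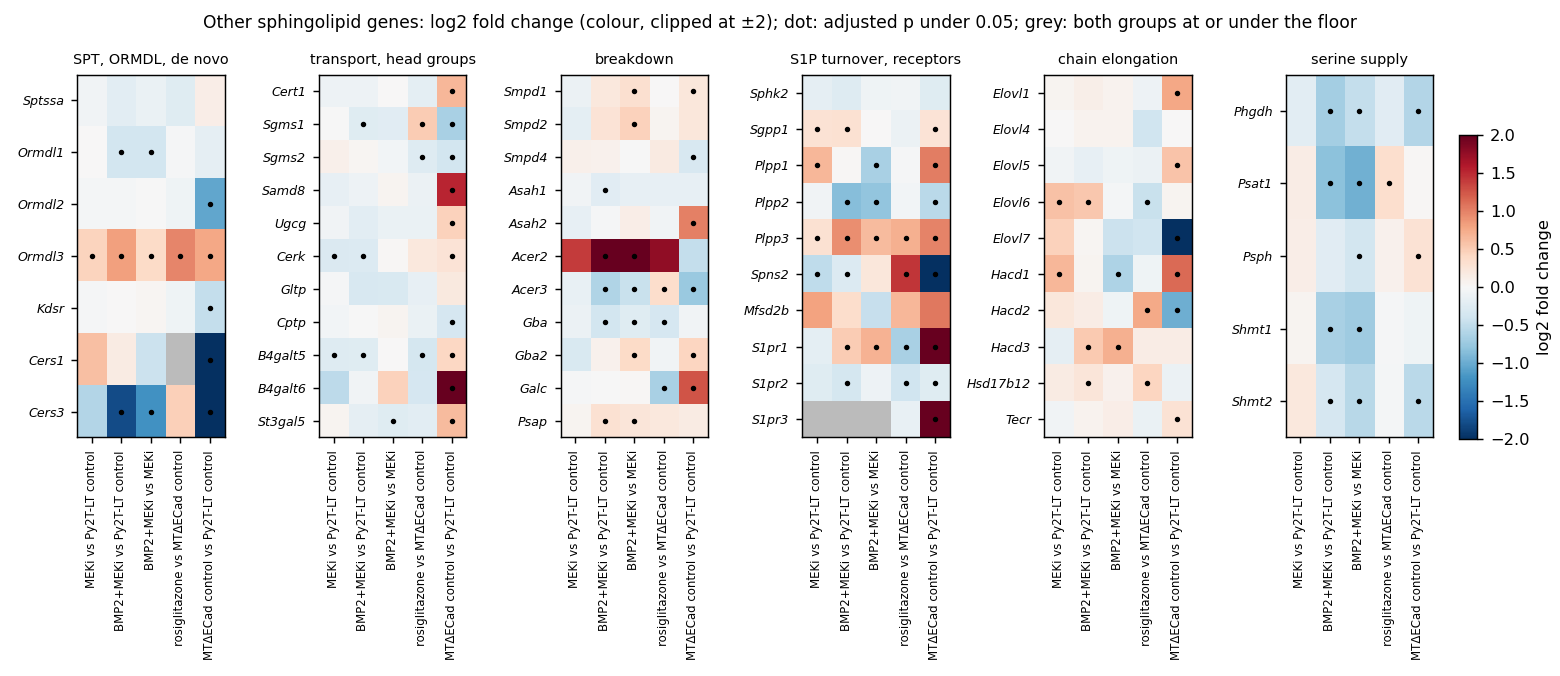
Log2 fold change (colour, red higher and blue lower, clipped at 2 in either direction) of the other tested sphingolipid genes (rows) in 5 comparisons (columns), by list; dots mark an adjusted p under 0.05 and grey cells have both groups at or under 3 counts per library. Ormdl3 is red with a dot in every column, and the serine supply genes are blue in the BMP2+MEKi columns.

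The genes whose levels most resembled Sptlc3 were found by Pearson correlation of log2 CPM over the 10 libraries, a description with no test, since the libraries fall into 5 groups. They were 2410006H16Rik (r = 0.974), S100a1 (0.965), Mmp15 (0.961), Garem1 (0.959) and Rxra (0.954), and Acer2 had rank 9 (0.946). Mmp15, a membrane-bound matrix protease, had 6.47 and 8.81 CPM in Py2T-LT controls, 21.6 and 15.7 with the MEK inhibitor and 33.5 and 37.6 with BMP2+MEKi, then 6.40 and 6.20 in MTΔECad controls and 13.7 and 13.3 with rosiglitazone. Rxra, the nuclear receptor that pairs with PPARγ, had 71.6 and 69.5, 98.9 and 95.4, 180 and 193, 72.3 and 65.5, and 127 and 116 CPM in the same order of groups. Unlike Sptlc3, each of the 5 had counts in the controls of both lines. The lowest of their control means was 5.83 CPM, that of Garem1.

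**Figure D5:**
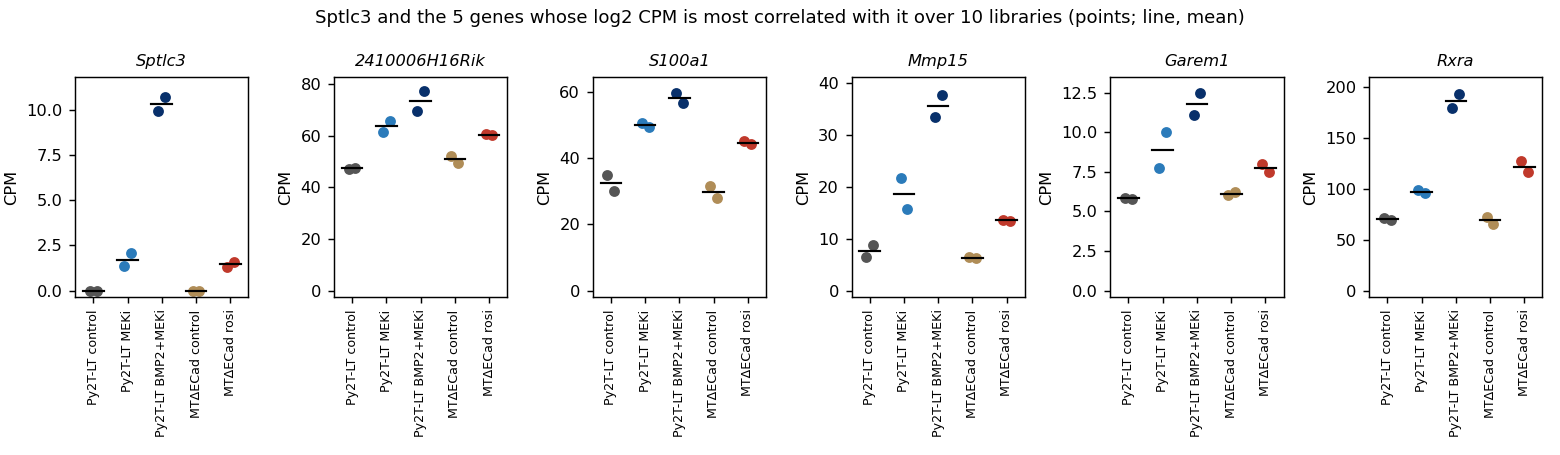
CPM (vertical axes) of Sptlc3 and of the 5 genes with the highest correlation to it across 10 libraries; points are libraries and lines group means. BMP2+MEKi is the highest group in all 6 panels, and only Sptlc3 starts from 0 in the controls.

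The genes next to Sptlc3 on chromosome 2 were looked at after its values were seen. Sptlc3 lies at chr2:139493913-139637061, with Jag1 and Btbd3 before it and Ism1 and Tasp1 after it. Jag1, a Notch ligand, was called higher with BMP2+MEKi (1.22 ± 0.10 on the log2 scale) and with rosiglitazone (0.87 ± 0.12), but not with the MEK inhibitor (-0.17 ± 0.10). Btbd3 was called lower with the MEK inhibitor and BMP2+MEKi (-0.51 ± 0.10 and -0.82 ± 0.11, shared controls). Ism1, the nearest gene, had 11 and 6 counts in Py2T-LT controls and 21 and 25 with BMP2+MEKi, and its call there was lost without Py2T-LT control replicate 2 (adjusted p = 0.098). Tasp1 was called higher with the MEK inhibitor (0.43 ± 0.11), lost without MEKi replicate 2 (adjusted p = 0.17), and had 21.0 and 19.0 CPM with BMP2+MEKi against 19.0 and 18.9 in controls. No neighbour thus had the order of levels that Sptlc3 had across the 5 groups.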

How the data were processed

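RNA came from 2 independent experiments per group, per the labels' protocols, and libraries were made with a stranded total RNA kit. Deviations of same-numbered libraries correlated between groups at -0.359 to 0.417, with mixed sign. The main fit included no pairing. The authors deposited whole-number read counts per gene, and per the submitters' processing notes reads were aligned with STAR to mm10. The sources used here do not give versions, the counting tool, its use of strand or the annotation. Of 18103 gene identifiers 18057 matched RefSeq symbols on GRCm38.p6, the assembly of mm10, and exon lengths came from GENCODE M21. In R 4.3.3, edgeR 4.0.16 kept 13149 genes (filterByExpr), scaled libraries by TMM and fitted 5 group means to all 10 libraries with robust quasi-likelihood, leaving 5 residual degrees of freedom. The script was tested on simulated data. P-values were adjusted over all genes tested within a comparison. They rest on a spread estimated over all 5 groups of 2 experiments, not on that of the compared groups alone. In mean chi-square per gene between replicate counts, the Py2T-LT controls stood at 17.2 and the other groups at 5.50 to 7.88. The shared spread may therefore understate that of the Py2T-LT controls. The genes and lists were chosen with earlier results of these data known. From each list at most the 3 called genes with the largest change per comparison are named, beside paralogs, small subunits and ORMDL genes and the 5 genes most like Sptlc3. Reads carried no molecular identifiers and are not independent molecules, so intervals and floors hold counting error alone. Alternatives were other scalings, no count filter, only the compared groups, DESeq2 1.42.0, a replicate block and leaving out each library. For genes outside the group of 10 they were chosen after seeing the data.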

Additional observations from a re-analysis of the deposited data

How the results depend on the processing

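Of 419 alternative fits of single genes of the group, 395 kept their side of the threshold, 20 were no longer called, 4 became called and 0 called values turned direction. With the MEK inhibitor, the 1 called gene of the group, Sphk1, was no longer called when only the compared groups were fitted and with DESeq2. Its call was also lost without Py2T-LT control replicate 2 or MEKi replicate 1. With rosiglitazone the 1 called gene, Cers6, was no longer called with library totals, with DESeq2 and without each of the 4 libraries. Genes called with rosiglitazone over the whole table fell from 1737 to 1112 to 1338 when 1 library was left out, 1112 without MTΔECad control replicate 1. A library left alone in its group was assumed to vary like the other groups. Leaving out 1 library, the Sptlc3 level was 1.36 to 2.08 CPM with the MEK inhibitor, 9.91 to 10.7 CPM with BMP2+MEKi and 1.31 to 1.58 CPM with rosiglitazone.

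With the replicate number as a block, 1, 3, 3, 1 and 4 genes of the group were called in the order MEK inhibitor, BMP2+MEKi against controls, BMP2+MEKi against the MEK inhibitor, rosiglitazone and between the lines, as without it, and 2245, 5148, 5024, 1833 and 8091 genes of the whole table in place of 2170, 5064, 4908, 1737 and 8020. Deviations of same-numbered libraries correlated at -0.359 to 0.417 over 10 pairs of groups, 5 of them over 0.1. Against their controls, the MEKi libraries had 0.266, the rosiglitazone libraries 0.341 and the BMP2+MEKi libraries -0.0556. These values of mixed sign do not settle whether same-numbered libraries were paired. Depth limits Sptlc3, Sphk1, Acer2, Cers1 and Cers3, whose counts are low. The chosen floor of 3 counts per library was worth at most 0.209 CPM, and counts below it were still recorded.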
